A study of Mus musculus with 24 samples.

Results

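The megalin and cubilin endocytosis genes are the rows of the count table whose gene symbol is Lrp2, Cubn, Amn, Dab2, Clcn5, Ocrl, Fcgrt, Folr1 or Pdzk1. They are 9 of the 54532 genes in the table, and all 9 were among the 22570 genes expressed highly enough to be tested. Counts came from RNA-seq of whole kidneys of 24 mice labelled C57BL/6 (a C57BL/6 J background in the study's methods) at 18 days of age, and all of them had 1 Pkd1 allele of the RC type, whose missense change leaves polycystin-1 partly functional. In RC/+ mice, labelled control, the other allele was floxed and intact because no Cre was present. In RC/- mice, labelled cystic, it was inactivated by KspCre, a Cre transgene under the promoter of kidney-specific cadherin, so effects of Cre and of the cystic genotype cannot be told apart. In the RC/+ D18 and RC/- D18 mice, which descend from founder 3, and in the RC/+ D53 and RC/- D53 mice, which descend from founder 2, the miR-17 binding motif had been deleted from the RC allele (D18 is the name of a line and not an age). Each edited line goes back to 1 founder, so the deletion and anything else inherited from that founder cannot be told apart. The noncystic groups held 3 mice each and the cystic groups 5 each.

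The proximal tubule takes filtered proteins, vitamins and hormones back from the forming urine by receptor-mediated endocytosis. Megalin (Lrp2) is the giant receptor of this pathway, and cubilin (Cubn), which has no membrane-spanning part, reaches the apical membrane together with amnionless (Amn). The receptors are gathered into clathrin-coated pits with the adaptor Dab2, and the endosomes that form are acidified and sorted with the help of the chloride-proton exchanger ClC-5 (Clcn5) and the lipid phosphatase Ocrl, whose human genes are mutated in Dent disease and Lowe syndrome. The neonatal Fc receptor (Fcgrt) rescues albumin and IgG from breakdown, the folate receptor alpha (Folr1) captures folate, and Pdzk1 is a scaffold that holds transporters in the brush border.

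Total counts ran from 20379982 to 30837488 per library. Levels are given as CPM, which are counts scaled to the same total in each library, and differences between groups as log2 fold changes from limma-trend with Benjamini-Hochberg adjusted p-values over all 22570 genes tested. Ocrl had the fewest counts of the members, 655 to 1175 in a library, and Lrp2 the most, 5483 to 36901. Markers of podocytes, thick ascending limb and collecting duct were present in every group, as were the 14 proximal tubule markers described with the results. Libraries 20 to 27, 3 of RC/- D18 (20 to 22) and the 5 of RC/- D53, held skeletal muscle transcripts (Myh4, Acta1, Ckm and Tnnt3), whose summed level was 114 to 151 CPM in RC/- D53 and 6.40 to 141 CPM in RC/- D18, against 4.74 to 7.21 CPM in RC/+ and 5.84 to 8.77 CPM in unedited RC/-. This set holds no unedited library, so results of the edited cystic kidneys are also given with it as a covariate or without it where that changed a call.

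In unedited cystic kidneys most of this pathway was expressed at a lower level than in noncystic kidneys. Comparing RC/- with RC/+ addresses cystic disease on an RC allele with an intact motif. Pdzk1, Lrp2, Amn, Folr1, Cubn and Dab2 fell, Ocrl rose, and Clcn5 and Fcgrt did not pass the test. The 7 members called compare with 37.6% of all genes tested, and the 6 that fell with 12.2% of all genes called lower. The groups did not overlap for the same 7 members, where 37.6% of all genes had groups without overlap. The median log2 fold change of the 9 members was -1.13, beside 0.14 for all genes.

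Megalin fell to 41.4% of its RC/+ mean. Lrp2 (ENSMUSG00000027070, chromosome 2 from 69424340 to 69586065 on the minus strand in GRCm38) was at 1013, 1149 and 961 CPM in the 3 RC/+ kidneys and at 619.5, 559, 406, 230.2 and 343 CPM in the 5 RC/- kidneys. Every RC/- library lay below every RC/+ library, and RC/- replicate 16 was the lowest. The log2 fold change was -1.35 (SE 0.192, limma-trend adjusted p = 4.67e-06), which is 2.55-fold lower.

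Cubilin and its partner amnionless fell by similar factors. Cubn (ENSMUSG00000026726, chromosome 2 from 13276338 to 13491813, minus strand) was at 169, 179 and 162 CPM in RC/+ and at 118.5, 111, 80.4, 43.8 and 59.5 CPM in RC/-, which gives -1.13 as log2 fold change (limma-trend, SE 0.197, adjusted p = 6.39e-05). Amn (ENSMUSG00000021278, chromosome 12 from 111271095 to 111276426, plus strand) was at 223, 211 and 201 CPM in RC/+ and at 95.1, 108, 107, 62.2 and 94.5 CPM in RC/-, a difference of -1.21 on the log2 scale (SE 0.131, adjusted p = 1.07e-07). For both genes all RC/- kidneys were below all RC/+ kidneys, and replicate 16 was again the lowest. The spread within RC/- differed between the partners, from 2.71-fold between the highest and the lowest library for Cubn to 1.74-fold for Amn.

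Lrp2 and Cubn, the giant receptors, lie on the same chromosome and had nearly the same pattern over the libraries, so the sequences before their start sites are shown side by side, with that of Amn. Each line gives the 250 bases before the RefSeq start in GRCm38.p6, 5′ to 3′ on the gene's own strand, and the capitals mark CpG dinucleotides.
Lrp2: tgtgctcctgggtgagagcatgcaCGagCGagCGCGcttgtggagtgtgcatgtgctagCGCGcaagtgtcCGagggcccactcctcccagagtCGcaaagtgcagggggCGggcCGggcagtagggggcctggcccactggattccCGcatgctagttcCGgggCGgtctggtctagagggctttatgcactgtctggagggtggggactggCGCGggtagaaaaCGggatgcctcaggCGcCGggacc
Cubn: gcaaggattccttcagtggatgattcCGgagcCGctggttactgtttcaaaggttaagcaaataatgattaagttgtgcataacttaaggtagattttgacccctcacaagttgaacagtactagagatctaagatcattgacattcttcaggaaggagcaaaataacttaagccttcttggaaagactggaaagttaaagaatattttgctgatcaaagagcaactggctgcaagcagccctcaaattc
Amn: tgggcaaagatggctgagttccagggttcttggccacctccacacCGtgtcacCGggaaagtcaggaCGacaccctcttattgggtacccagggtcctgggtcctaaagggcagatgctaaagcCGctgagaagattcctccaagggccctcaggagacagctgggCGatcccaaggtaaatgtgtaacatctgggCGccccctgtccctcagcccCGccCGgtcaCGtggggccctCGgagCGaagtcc
These windows are chr2:69586030-69586279 for Lrp2, chr2:13491877-13492126 for Cubn and chr12:111270846-111271095 for Amn. The Lrp2 window held 18 CpG and was 66.4% G or C, the Cubn window held 2 CpG and was 39.6% G or C, and the Amn window held 11 CpG and was 61.2% G or C. The median over all 32851 windows of this length was 6 CpG and 52.4% G or C, so the windows of Lrp2 and Cubn lay on opposite sides of it. Searched on both strands, the HNF4 motif CAAAGTCCA was in 0.384% of all windows and the E box CACGTG in 6.02%. Lrp2 and Cubn matched neither, and Amn matched the E box at 26 bases before its start, the only match to either motif among the windows of the members. RefSeq windows were found for 8 of the 9 members, 11 windows in all, and Folr1 was not matched.

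The adaptor fell by a smaller factor. Dab2 (ENSMUSG00000022150, chromosome 15 from 6299788 to 6440712, plus strand) was at 388, 362 and 313 CPM in RC/+ and at 256.5, 233, 247.5, 201 and 273 CPM in RC/-. The groups did not overlap, but the RC/- mean stayed at 68.4% of the RC/+ mean, against 41.4% for Lrp2. The log2 fold change was -0.55 (SE 0.0977, limma-trend adjusted p = 8.41e-05), and its 95% confidence interval of -0.75 to -0.35 lay apart from that of Lrp2, -1.75 to -0.96, but met that of Cubn, -1.54 to -0.73. The difference between the genes was not tested.

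Neither gene of endosome acidification and sorting was called lower. Clcn5 (ENSMUSG00000004317, chromosome X from 7153810 to 7319358, minus strand) was at 62.1 to 77.3 CPM in RC/+ and 61.8 to 80.5 CPM in RC/-, and these ranges overlap almost fully. Its log2 fold change was 0.05 (95% confidence interval -0.13 to 0.24, adjusted p = 0.692), and with TMM factors, which centre the median of all genes near 0, it was -0.09. Ocrl (ENSMUSG00000001173, chromosome X from 47912387 to 47965868, plus strand) was at 35.3, 33.75 and 34.1 CPM in RC/+ and at 50.2, 42.1, 44.0, 43.2 and 44.2 CPM in RC/-. All RC/- kidneys were above all RC/+ kidneys, with a log2 fold change of 0.38 (SE 0.10, limma-trend adjusted p = 0.00425). Under TMM factors it was 0.24 (adjusted p = 0.0248, the highest over its 18 alternatives, of which 0.00122 was the lowest).

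Among the members that handle particular cargo, the folate receptor fell and the neonatal Fc receptor was close to the threshold. Folr1 (ENSMUSG00000001827, chromosome 7 from 101858331 to 101870788, minus strand) was at 321, 309 and 275 CPM in RC/+ and at 151.5, 168, 143.5, 81.2 and 146 CPM in RC/-, with a log2 fold change of -1.17 (SE 0.166, limma-trend adjusted p = 4.92e-06). Its RC/- libraries were all lower than its RC/+ libraries. Fcgrt (ENSMUSG00000003420, chromosome 7 from 45092990 to 45103851, minus strand) was at 194.5 to 242.5 CPM in RC/+ and 158 to 199.8 CPM in RC/-, and the groups overlapped through RC/+ replicate 5. Its log2 fold change of -0.29 had an adjusted p of 0.0746 (limma-trend), which passed the threshold in 7 of 18 alternatives, over which the adjusted p ranged from 0.00606 to 0.252. These were both other scalings, edgeR, DESeq2, the fit of only the compared groups, the fit without libraries 20 to 27 and the fit without RC/+ replicate 5.

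The brush border scaffold fell most. Pdzk1 (ENSMUSG00000038298, chromosome 3 from 96829284 to 96870926, plus strand) was at 539, 500.0 and 503 CPM in RC/+ and at 206, 222, 195.5, 112 and 154 CPM in RC/-. The groups were far apart, and the log2 fold change was -1.57 (SE 0.175, limma-trend adjusted p = 1.65e-07), which is 2.97-fold lower. Exons of Gpr89, Cd160 and 4930442L01Rik on the other strand cover 41.7% of the exon bases of Pdzk1. Whether the counting used strand is not stated, so how reads from these bases were counted is not known. Mean levels of the 3 neighbours were at most 26.5 CPM in any group, below the lowest Pdzk1 library. These levels do not bound the reads that may have gone uncounted. Antisense exons covered 2.87% of the exon bases of Dab2 and 2.46% of those of Cubn, and none of the other 6 members.

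**Figure D1:**
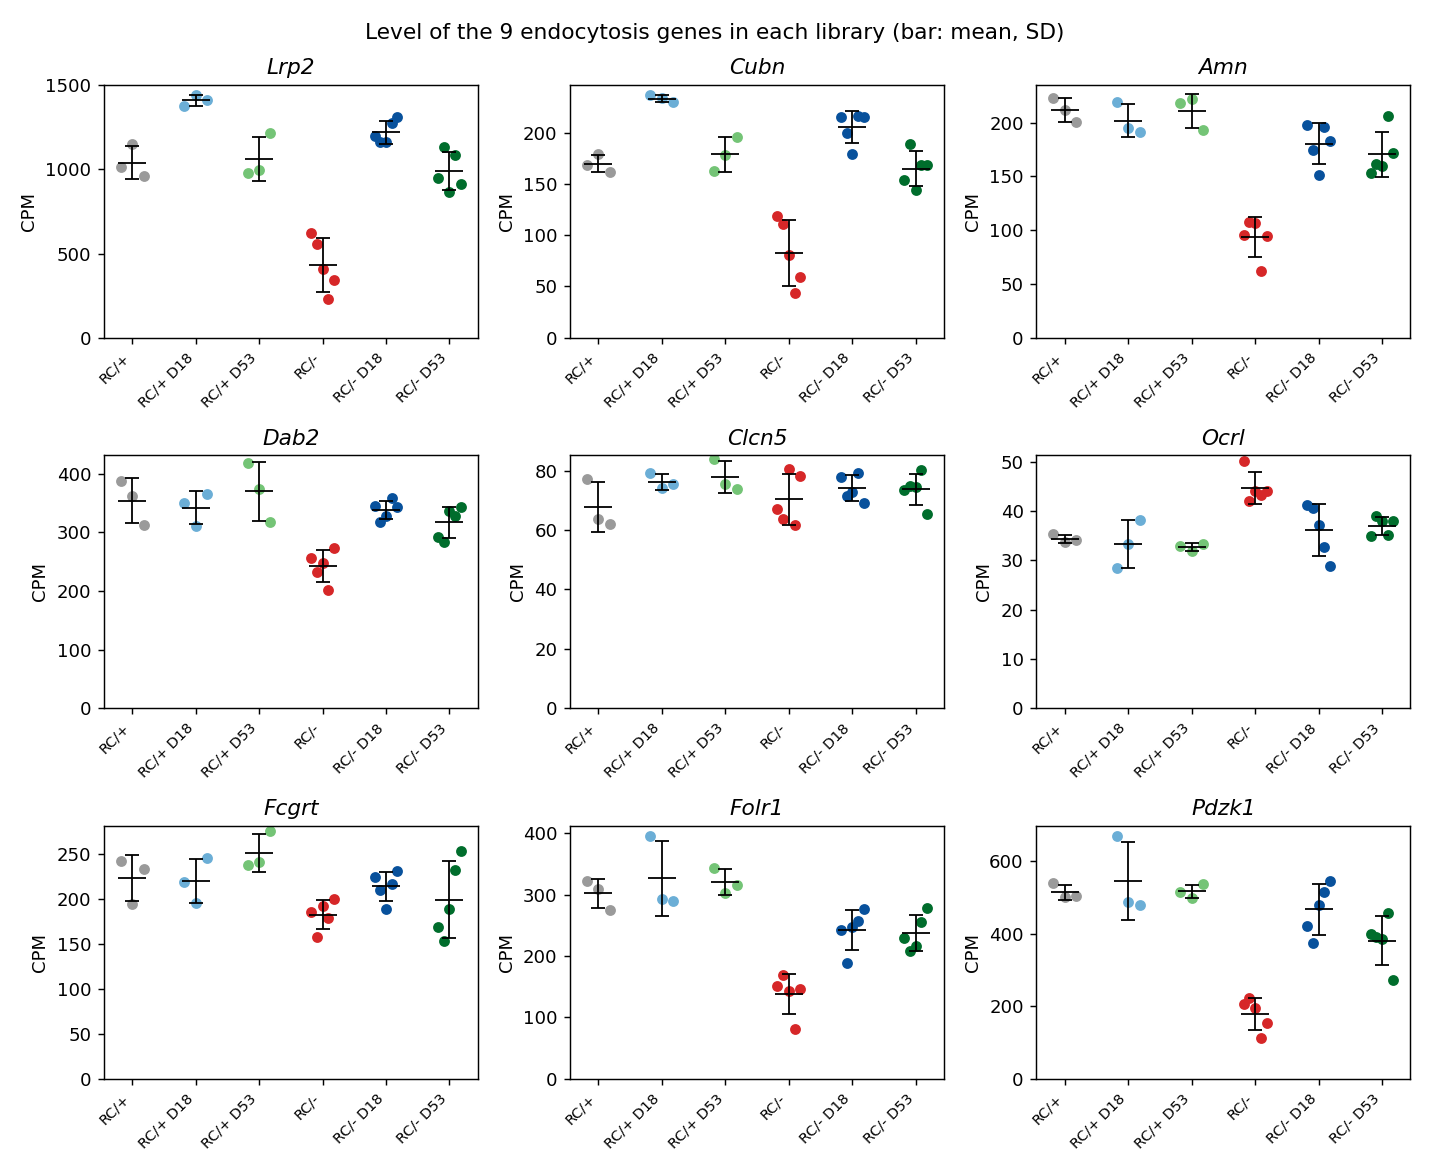
Level of each member in CPM (vertical axis, linear from 0) in each of the 24 libraries, with 1 point per mouse and bars for the mean and SD of the 6 groups (n = 3 noncystic, n = 5 cystic). The RC/- points lie below all RC/+ points for Lrp2, Cubn, Amn, Dab2, Folr1 and Pdzk1, above them for Ocrl, and among them for Clcn5.

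Set per length of exon, the members span a wide range in the kidney. The length of Pdzk1 includes the 41.7% of its exon bases that antisense exons also cover. In RC/+ kidneys Pdzk1 had 144.5 CPM per kilobase, Folr1 131, Amn 115 and Fcgrt 106, while Lrp2 had 62.3, Dab2 48.2, Cubn 11.4, Clcn5 5.91 and Ocrl 3.63 (means, n = 3). Amn was thus far above Cubn per length, although their proteins act together. The ranges of Folr1, Amn and Fcgrt overlapped from one to the next, and those of the other neighbours in this order did not. In RC/- kidneys (means, n = 5) the order changed, with Fcgrt highest at 87.0 CPM per kilobase, Folr1 at 60.1, Amn at 50.6, Pdzk1 at 50.1 and Dab2 at 33.0 above Lrp2 at 25.8, while Clcn5 at 6.14 passed Cubn at 5.54. The SD of Lrp2 in RC/- was 9.50 and that of Dab2 3.70 CPM per kilobase, so that these neighbours in the order do not differ beyond their spread, and the same holds for Amn and Pdzk1 (SD 10.05 and 12.5) and for Clcn5 and Cubn (SD 0.748 and 2.16).

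Other genes of the proximal tubule fell in the same kidneys. Of 14 proximal tubule markers that are not members, 13 fell in RC/- and none rose, with a median log2 fold change of -1.52, where 12.2% of all genes were called lower. Slc7a13, an amino acid transporter of the late proximal tubule, fell by 1.92 and Slc5a12, a lactate transporter, by 1.80 on the log2 scale (limma-trend adjusted p = 4.88e-06 and 2.82e-07). The mean log2 CPM of the 14 markers was 8.71 to 8.74 in the RC/+ libraries and 6.85 to 7.74 in the RC/- libraries. In whole kidneys, fewer cells of a type and less RNA per cell cannot be told apart.

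Set against these markers in the same library, Lrp2, Cubn, Amn, Folr1 and Pdzk1 differed little between the groups. The log2 CPM of Lrp2 minus the marker mean was 1.30 in RC/+ and 1.32 in RC/- (group means), a difference of 0.02. The differences for Pdzk1, Amn, Folr1 and Cubn were -0.19, 0.17, 0.21 and 0.24, and for all of these members the RC/- and RC/+ libraries overlapped. Relative to the markers Dab2 was higher in RC/- by 0.83, Fcgrt by 1.09, Clcn5 by 1.43 and Ocrl by 1.75 on the log2 scale, with no overlap between the groups. On this scale 80.6% of all genes tested had every RC/- library above every RC/+ library, so the last 4 members were placed like most of the transcriptome. The receptors, amnionless, Folr1 and Pdzk1 were within 0.24 of the marker mean's own change.

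**Figure D2:**
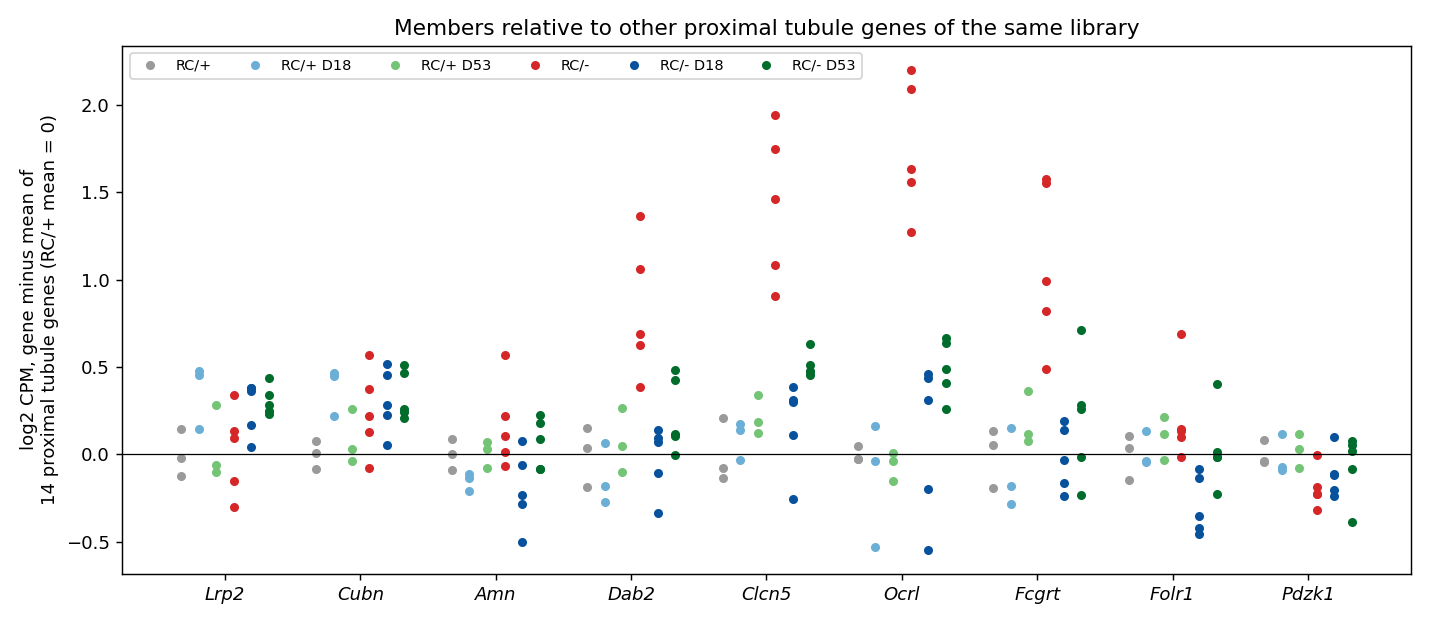
Log2 CPM of each member minus the mean log2 CPM of 14 proximal tubule genes in the same library, centred on the RC/+ mean of each member, with 1 point per mouse and colours for the 6 groups. In RC/- the points of Lrp2, Cubn, Amn, Folr1 and Pdzk1 overlap those of RC/+, whereas those of Dab2, Clcn5, Ocrl and Fcgrt lie above them.

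Markers of other cell types moved in these kidneys as well, where 25.5% of all genes were called higher and 12.2% lower. All 8 macrophage markers rose in RC/- (summed level 575 to 1041 CPM, against 258 to 279.75 CPM in RC/+), all 4 collecting duct markers rose (2103 to 4286 CPM against 969.96 to 1235 CPM) and 3 of 4 fibroblast markers rose (2722 to 4360.0 CPM against 1176 to 1674 CPM). Among podocyte markers 4 of 5 fell and 1 rose (276 to 396 CPM against 540.1 to 549.95 CPM), of 4 markers of the thick ascending limb 2 fell and 1 rose (1844 to 3348 CPM against 4076 to 4631 CPM), and of 6 endothelial markers 3 fell (511 to 650.5 CPM against 551 to 711 CPM). No marker of skeletal muscle or of B and plasma cells passed the test in this comparison, and B and plasma cell markers summed to 1.39 to 3.02 CPM in RC/- and 1.33 to 3.92 CPM in RC/+. No marker was at 0 in all libraries. Their part in the values of the members was not tested.

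In both edited lines the members that had fallen in cystic kidneys were higher than in unedited cystic kidneys. The comparison of RC/- D18 and RC/- D53 with RC/- addresses the motif deletion in cystic kidneys. Both use the same 5 RC/- libraries, as does the comparison above, so the counts are not independent of each other. In RC/- D18, 7 members were called, 6 higher and Ocrl lower, where 41.2% of all genes were called and 14.3% called higher. In RC/- D53 the counts were the same, where 30.2% of all genes were called and 11.3% called higher. The groups did not overlap for 7 members in either comparison, against 27.8% of all genes for D18 and 18.8% for D53. The median log2 fold change of the members was 0.84 for D18 and 0.81 for D53, beside -0.10 and -0.08 for all genes.

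Megalin was higher in both lines. Lrp2 was at 1197, 1162, 1162, 1274 and 1311 CPM in RC/- D18 and at 948, 1135, 867, 1085 and 915 CPM in RC/- D53. The lowest of these 10 libraries was above the highest RC/- library, and the group means were 117% and 95% of the RC/+ mean. The log2 fold changes against RC/- were 1.58 for D18 (SE 0.166, limma-trend adjusted p = 5.43e-08) and 1.28 for D53 (SE 0.166, adjusted p = 2.84e-06).

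Cubilin and amnionless rose too. Cubn was at 215, 200, 179.7, 216 and 216 CPM in RC/- D18 and at 154, 189, 144, 169 and 169 CPM in RC/- D53, with log2 fold changes of 1.41 and 1.09 (SE 0.171, limma-trend adjusted p = 4.6e-07 and 2.93e-05). Amn was at 198, 174, 151, 196 and 183 CPM in RC/- D18 and at 153, 161.5, 159.8, 206 and 172 CPM in RC/- D53, with log2 fold changes of 0.97 and 0.89 (SE 0.113, adjusted p = 2.65e-07 and 2.2e-06). Both genes were above the RC/- range in every edited cystic library. The Cubn mean in RC/- D18 was 121% of the RC/+ mean, whereas the Amn means were 85.2% in D18 and 80.5% in D53.

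The scaffold and the folate receptor rose but their means stayed below those of RC/+. Pdzk1 was at 421, 374, 478, 516 and 545.5 CPM in RC/- D18 and at 399, 391, 385, 457 and 273 CPM in RC/- D53, with log2 fold changes of 1.42 and 1.12 (SE 0.152, limma-trend adjusted p = 7.59e-08 and 4.9e-06). Folr1 was at 243, 188.5, 247, 258 and 276 CPM in RC/- D18 and at 229, 208, 216, 256 and 278 CPM in RC/- D53, with log2 fold changes of 0.84 and 0.81 (SE 0.144, adjusted p = 4.28e-05 and 0.000119). The means were 90.9% and 74.1% of the RC/+ mean for Pdzk1 and 80.3% and 78.6% for Folr1. RC/- D53 replicate 27 was the lowest edited library for Pdzk1 and the highest of its group for Folr1.

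Dab2 rose by less and Ocrl fell. Dab2 was at 318 to 358 CPM in RC/- D18 and 284 to 343 CPM in RC/- D53, all above the RC/- range, with log2 fold changes of 0.49 and 0.39 (SE 0.0846, limma-trend adjusted p = 5.4e-05 and 0.000969). Ocrl was at 41.3, 40.7, 37.2, 32.7 and 28.8 CPM in RC/- D18 and at 34.99, 39.0, 38.05, 35.3 and 38.0 CPM in RC/- D53, with log2 fold changes of -0.32 and -0.27 (SE 0.0867, adjusted p = 0.00462 and 0.0201). RC/- D18 replicates 18 and 19, which lack the muscle transcripts, had the highest Ocrl levels of their group. Clcn5 at 69.05 to 79.3 CPM in RC/- D18 and 65.35 to 80.3 CPM in RC/- D53, and Fcgrt at 189 to 231 and 153 to 254 CPM, overlapped with RC/- and did not pass the test (limma-trend adjusted p of 0.428 and 0.533 for Clcn5, 0.0934 and 0.524 for Fcgrt). In RC/- D18 Fcgrt passed in 5 of 20 alternatives (adjusted p from 0.00911 to 0.218) and Clcn5 in 1 of 20 (lowest adjusted p 0.0472). In RC/- D53 neither passed in any alternative.

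Some of these calls changed with the treatment of libraries 20 to 27. With this set as a covariate the log2 fold change of Ocrl in RC/- D18 was -0.12 (limma-trend adjusted p = 0.389) and without the set it was -0.12 (adjusted p = 0.386), where the 20 alternatives ranged from 0.0018 to 0.389. In RC/- D53 the covariate, whose effect is estimated within RC/- D18 alone, left 3 of the 7 members called (Lrp2, Cubn and Amn). With it 7.96% of all genes were called, against 30.2% without it, and Ocrl turned to 0.05 (limma-trend adjusted p = 0.867). The log2 fold changes of the other 3 were then 0.34 for Dab2 (adjusted p = 0.183), 0.53 for Folr1 (0.205) and 0.75 for Pdzk1 (0.0722), against 0.39, 0.81 and 1.12 without the covariate. Every other alternative kept Lrp2, Cubn, Amn, Dab2, Folr1 and Pdzk1 called in RC/- D53, while Ocrl also missed the threshold with TMM factors, without RC/- replicate 13 and without RC/- D53 replicate 23 (adjusted p of 0.0549, 0.061 and 0.0518).

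**Figure D3:**
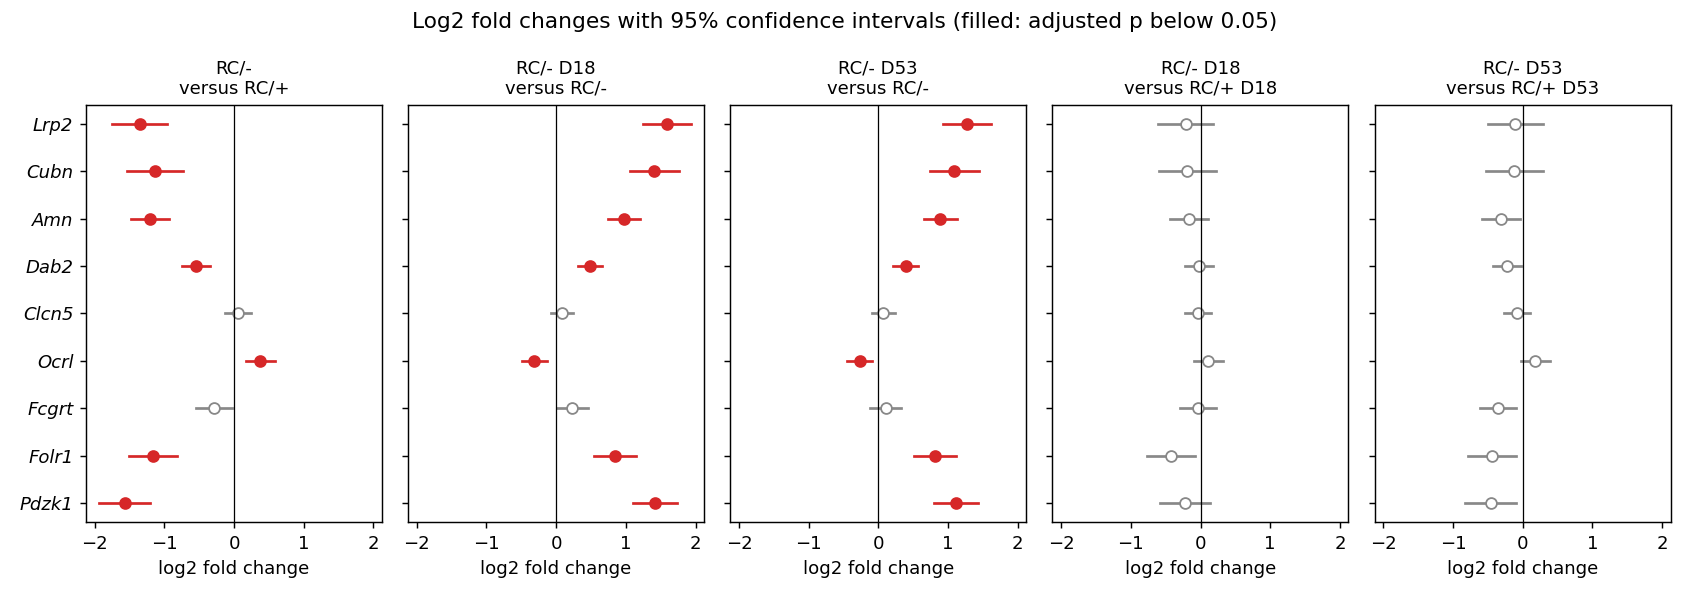
Log2 fold change (horizontal axis) with its 95% confidence interval from limma-trend for the 9 members in 5 comparisons, with filled points for an adjusted p below 0.05. The 7 filled points of RC/- versus RC/+ have filled points of opposite sign in RC/- D18 and RC/- D53 versus RC/-, which share the RC/- libraries, and there are none within the edited lines.

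Within each edited line the RC/- and RC/+ kidneys did not differ at this threshold for any member. In RC/- D18 against RC/+ D18 limma-trend called 0 of 9 members, where 0.266% of all genes were called. The lowest adjusted p was 0.416 (Folr1). Folr1 alone among the members had an unadjusted p below 0.05, where 2011 of all genes tested did. In RC/- D53 against RC/+ D53 limma-trend called 0 of 9, where 2.6% of all genes were called. The lowest adjusted p was 0.16 (Fcgrt). An unadjusted p below 0.05 was found for 5 members (Amn, Dab2, Fcgrt, Folr1 and Pdzk1) and for 3013 of all genes tested. The edgeR and DESeq2 tests also called 0 members in both, although Folr1 passed in D53 when only the 2 groups were fitted (adjusted p = 0.0175) and Fcgrt passed without RC/- D53 replicate 27 (adjusted p = 0.0372). The point estimates were below 0 for 8 of 9 members in each line, with medians of -0.17 in D18 and -0.22 in D53 beside 0.04 for all genes, and Ocrl was the exception in both. A p above the threshold does not show that the groups were equal, and the 95% confidence intervals reached -0.77 for Folr1 in D18 and -0.82 for Pdzk1 in D53. The groups did not overlap for 3 members in D18 (Lrp2, Cubn and Folr1, where 5.76% of all genes did not overlap) and for 3 in D53 (Ocrl, Folr1 and Pdzk1, where 11.6% did not).

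Whether the cystic difference itself changed with the deletion was tested by an interaction contrast, which subtracts the cystic difference of the unedited line from that of the edited line. For D18, 6 members were called and all 6 were positive, where 17.1% of all genes were called and 6.31% were called with a positive sign. The differences on the log2 scale were 1.35 for Pdzk1, 1.14 for Lrp2, 1.04 for Amn, 0.95 for Cubn, 0.74 for Folr1 and 0.53 for Dab2 (limma-trend adjusted p from 0.00039 for Amn to 0.0301 for Folr1). For D53, 5 members were called and positive, where 11.3% of all genes were called and 4.73% were called with a positive sign, at 1.25 for Lrp2, 1.11 for Pdzk1, 1.01 for Cubn, 0.89 for Amn and 0.73 for Folr1 (adjusted p from 0.00279 for Amn to 0.0457 for Folr1). The call of Folr1 was lost in 10 of 26 alternatives for D18 (adjusted p up to 0.242) and in 14 of 25 for D53 (up to 0.539). Dab2 was at 0.33 in D53 (adjusted p = 0.128). Without libraries 20 to 27 the D18 count was 2 (Amn and Pdzk1), where 9.1% of all genes were called, and without RC/+ replicate 5 it was 4. With libraries 20 to 27 as a covariate the D53 count was 1 (Amn), where 1.79% of all genes were called. Leaving out RC/+ replicate 5 or RC/+ D53 replicate 10 each left 3 members called for D53. For the fits that left out 1 library the share of all genes called is not given, so these counts have no share beside them.

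In noncystic kidneys the deletion went with no called member. In RC/+ D18 against RC/+ limma-trend called 0 of 9 members (0.00443% of all genes, which is 1 gene) and in RC/+ D53 against RC/+ it called 0 of 9 (0% of all genes, with 525 genes at an unadjusted p below 0.05 and 0 called by edgeR or DESeq2). Their lowest adjusted p was 0.983 in D18 and 1 in D53, and edgeR and DESeq2 called 0 members as well. Cubn alone had an unadjusted p below 0.05, in D18, where 1013 of all genes tested did. Lrp2 was at 1379, 1441 and 1412 CPM in RC/+ D18, above all 3 RC/+ kidneys, and Cubn was at 237, 234 and 230 CPM, also above all 3. The log2 fold changes were 0.44 for Lrp2 (95% confidence interval 0 to 0.88, adjusted p = 0.983) and 0.46 for Cubn (0.01 to 0.91, adjusted p = 0.983), and these were the 2 members whose groups did not overlap, where 9.95% of all genes did not. In RC/+ D53 Lrp2 was at 979, 996 and 1215 CPM and Cubn at 163, 178 and 196 CPM, across the RC/+ range. Ocrl alone did not overlap in that comparison, where 8.84% of all genes did not.

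Both D18 groups had higher Lrp2 and Cubn means than their D53 counterparts. RC/- D53 against RC/- D18 gave log2 fold changes of -0.31 for Lrp2 and -0.32 for Cubn (limma-trend adjusted p = 0.427 for both). No member was called, where 0.266% of all genes were called, and edgeR and DESeq2 called 0. No member had an unadjusted p below 0.05, where 2993 of all genes tested did. Lrp2 was the 1 member whose groups did not overlap, where 2.74% of all genes did not. Within libraries 20 to 27, which compare RC/- D53 with RC/- D18 replicates 20 to 22, no member was called either, where 0.186% of all genes were called.

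The order of the group means shows the same contrast between members. Lrp2 and Cubn were lowest in RC/-, followed by RC/- D53, RC/+, RC/+ D53, RC/- D18 and RC/+ D18. Amn and Dab2 were also lowest in RC/- and next in RC/- D53 and RC/- D18, but then came RC/+ D18, and their highest mean was RC/+ for Amn and RC/+ D53 for Dab2. Folr1 and Pdzk1 were lowest in the 3 cystic groups in that same sequence. Clcn5 was lowest in RC/+ at 67.7 CPM and highest in RC/+ D53 at 77.7 CPM (means, n = 3), and Ocrl was highest in RC/-. Among the other 5 groups, no tested pair of neighbours in these orders passed the threshold for any member.

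Lrp2 and Cubn followed each other more closely than any other gene followed either of them. Over the 24 libraries the Pearson correlation of their log2 CPM was 0.992, the highest among 22569 genes for each. The next for Lrp2 were Slc5a9, a sodium-glucose cotransporter (0.984), Slc47a1, an organic cation exporter of the brush border (0.983), Sfxn2, a mitochondrial carrier (0.978), and Xpnpep2, a membrane aminopeptidase (0.978). For Cubn they were Slc5a9 (0.982), Slc47a1 (0.976), Nlrp6 (0.974) and BC024386 (0.972). These points share group differences, and the libraries of RC/- spread the most. Over the 19 libraries outside RC/- the correlation of Lrp2 with Cubn was 0.949, while that of Lrp2 with Amn went from 0.899 over all 24 to 0.19, with Dab2 from 0.779 to -0.05 and with Pdzk1 from 0.934 to 0.499. Amn instead stayed with Folr1 (0.946 over 24 libraries and 0.743 over 19).

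The ratio of the receptors varied little. The CPM of Lrp2 was 6.12 times that of Cubn in RC/+ (SD 0.262, n = 3) and 5.27 times in RC/- (SD 0.297, n = 5), with ranges of 5.94 to 6.42 and 5.03 to 5.77 that do not overlap. In the other groups the mean ratio was 5.94 to 6.05. The ratio of Lrp2 to Dab2, its adaptor, was 2.95 in RC/+ (SD 0.299, n = 3), 1.77 in RC/- (SD 0.611, n = 5), 3.61 in RC/- D18 and 3.16 in RC/- D53.

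**Figure D4:**
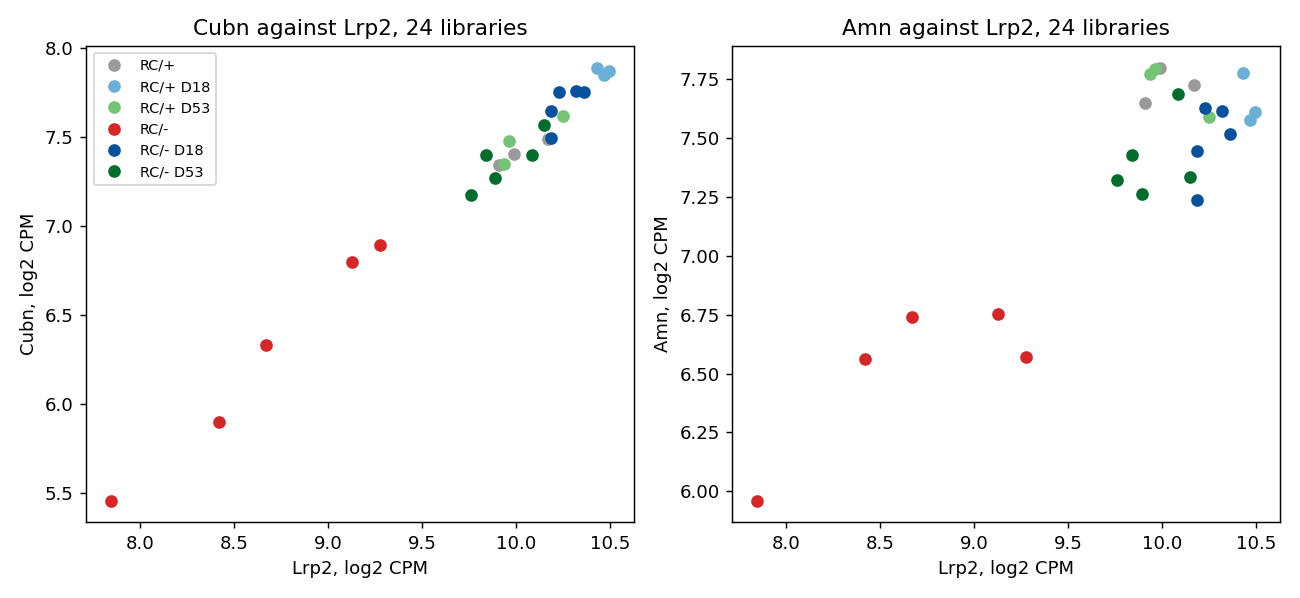
Log2 CPM of Cubn (left) and Amn (right) against log2 CPM of Lrp2, with 1 point per library and colours for the 6 groups. Cubn runs along 1 line from the lowest RC/- library to RC/+ D18 (Pearson correlation 0.992). Amn has a lower RC/- cloud, and its correlation with Lrp2 in the 19 other libraries, taken over all their groups, was 0.19.

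Among the members, the RC/- kidneys differed from each other most in the receptors. The coefficient of variation within RC/- was 39% for Cubn and 36.8% for Lrp2, 25% for Pdzk1, 24% for Folr1 and 19.8% for Amn, and it was 7.12% to 12.2% for Dab2, Clcn5, Ocrl and Fcgrt. In any other group it was at most 12.4% for Lrp2, 10.3% for Cubn, 12.3% for Amn, 18.6% for Folr1 and 19.7% for Pdzk1. For Dab2, Clcn5, Ocrl and Fcgrt it reached 13.6%, 12.3%, 14.7% and 21.4% in another group, above their values in RC/-. RC/- replicate 16 was the lowest of its group for Lrp2, Cubn, Amn, Dab2, Clcn5, Folr1 and Pdzk1, and replicate 14 was the lowest for Ocrl and Fcgrt. The mean log2 CPM of the 14 proximal tubule markers also spread within RC/-, from 6.85 in replicate 16 to 7.74 in replicate 14.

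The wider pathway did not move as 1 block. In RC/- against RC/+, 25 genes of the endocytic machinery gave 8 higher and 5 lower calls with a median log2 fold change of -0.01. The 22 genes of the lysosome and its acidification gave 7 higher and 7 lower with a median of -0.02, beside 0.14 for all genes. Of all genes tested, 25.5% were called higher and 12.2% lower. With TMM factors the machinery gave 4 higher and 11 lower and the lysosome 2 higher and 10 lower, where 34.3% of all genes were called in either direction. TMM moved the median of all genes from 0.14 to 0.01. Lrpap1, the chaperone of megalin, fell by 0.93 and Inpp5b, a phosphatase related to Ocrl, by 0.65 on the log2 scale, whereas Ap2b1, a subunit of the clathrin adaptor AP-2, rose by 0.71 and Gipc1, a partner of the megalin tail, by 0.54 (limma-trend adjusted p from 1.82e-08 to 0.000233). In the lysosome Ctsd, the protease cathepsin D, rose by 1.46 and Ctsz, another cathepsin, by 0.40, while Atp6v1b2, a proton pump subunit, fell by 0.51 (adjusted p from 9.83e-10 to 0.00114).

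Most brush border genes fell, and so did 6 of 12 vitamin carriers and uptake genes. Of 12 brush border genes and PDZ partners, 10 fell and 2 rose, with a median log2 fold change of -0.86. In the same comparison 12.2% of all genes were called lower and 25.5% higher. Slc34a1, the phosphate cotransporter, fell by 1.58 and Slc9a3, the sodium-proton exchanger, by 1.49 (limma-trend adjusted p = 2.61e-06 and 0.000118). Pdzk1ip1, a small partner of Pdzk1, rose by 0.39 and Ezr, which links membrane to actin, by 0.19 (adjusted p = 0.00147 and 0.0295), and with TMM factors neither passed (adjusted p = 0.0648 and 0.649). Of 12 vitamin carriers and uptake genes tested, 6 fell and 1 rose, with a median of -0.59. Ttr, the thyroxine and retinol carrier transthyretin, fell by 1.56 and Tcn2, the vitamin B12 carrier transcobalamin, by 1.26, while Folr2, the folate receptor of macrophages, rose by 1.29 from 0.433 to 1.11 CPM (adjusted p from 5.28e-09 to 0.0146).

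As a list, the relatives of megalin did not follow it. Of 13 other genes of the LDL receptor family 4 rose, 3 fell and 6 did not pass, where 25.5% of all genes were called higher and 12.2% lower. Their median log2 fold change was 0.03 and became -0.11 with TMM factors, where 3 rose and 3 fell. Lrp8, a reelin receptor, rose by 1.42 from 1.80 to 4.86 CPM and Lrp1, a receptor found in macrophages and fibroblasts among other cells, by 0.75, while Lrp3 fell by 0.33 and Vldlr, the VLDL receptor, by 0.31 (limma-trend adjusted p from 2.4e-05 to 0.0263). Of 8 transcription factors 4 fell and 1 rose, with a median of -0.42. Ppara, a factor of fatty acid breakdown, fell by 1.34, whereas Ybx3 rose by 0.59 (adjusted p = 0.000101 and 1.67e-06).

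**Figure D5:**
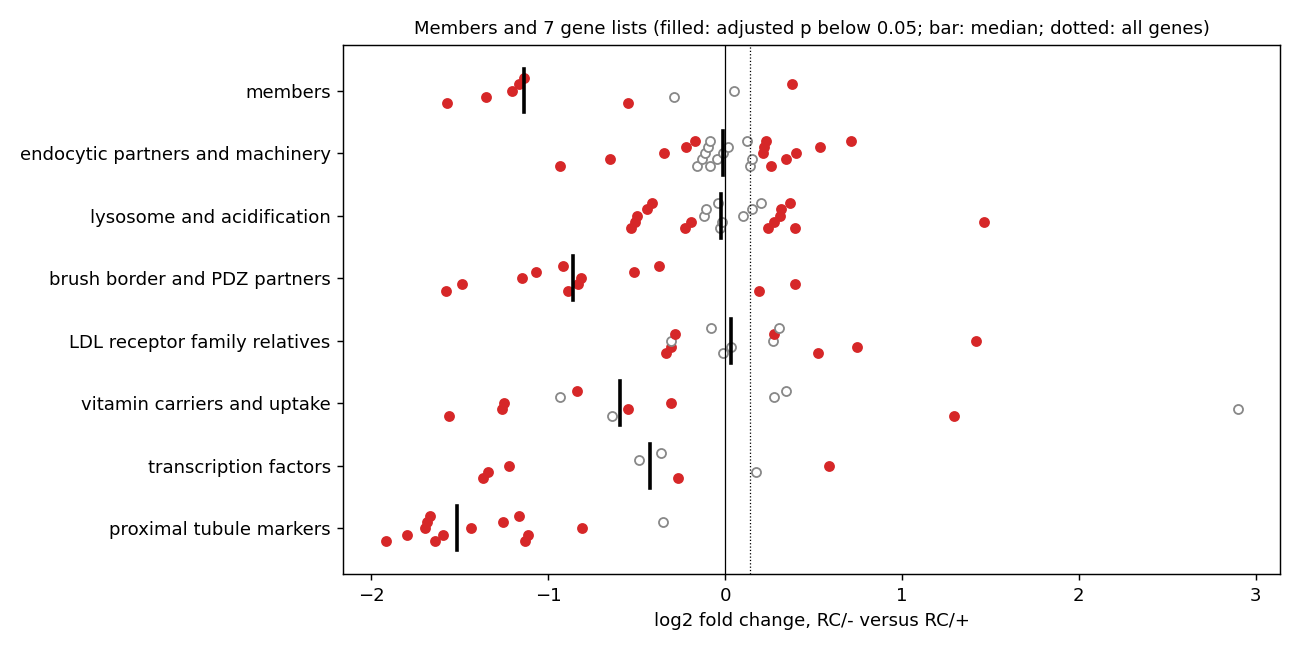
Log2 fold change in RC/- versus RC/+ (horizontal axis) of the members and of 7 gene lists (rows), with 1 point per gene, filled for an adjusted p below 0.05, black bars for medians and a dotted line for the median of all genes. The medians of the members (-1.13), the brush border list (-0.86) and the proximal tubule markers (-1.52) lie far to the left of that line, and those of the endocytic machinery (-0.01) and the lysosome (-0.02) lie near it.

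In the edited cystic kidneys the brush border genes and proximal tubule markers rose for the most part. Of all genes tested, 14.3% were called higher and 26.9% lower than RC/- in RC/- D18, and 11.3% and 18.9% in RC/- D53. Against RC/-, 10 of 12 brush border genes were higher in RC/- D18 and 10 in RC/- D53, with median log2 fold changes of 0.88 and 0.70, and 13 of 14 proximal tubule markers were higher in each, with medians of 1.44 and 1.03. The endocytic machinery gave 7 higher and 9 lower calls in D18 and 4 higher and 8 lower in D53, with medians of 0 and -0.06. The lysosome list gave 7 higher and 6 lower in D18 and 7 higher and 3 lower in D53, and the LDL receptor family 2 higher and 6 lower, and 2 higher and 5 lower. Of the 12 vitamin carriers and uptake genes 6 were higher in D18, and 5 were higher and 1 lower in D53, while of the 8 transcription factors 3 were higher and 1 lower in each. All 8 macrophage markers were lower in both, at 323 to 358 CPM in RC/- D18 and 358 to 489.8 CPM in RC/- D53. Collecting duct markers were lower for 4 of 4 in D18 and 2 of 4 in D53, fibroblast markers for 3 of 4 in both, and podocyte markers were higher for 4 of 5 and lower for 1 in both. Skeletal muscle markers were higher for 3 of 4 in D18 and 4 of 4 in D53. Within the edited lines no gene of the brush border or proximal tubule lists passed the test, at medians of -0.12 and -0.13 in D18 and -0.17 and -0.34 in D53. Of all genes, 0.266% were called within the D18 line and 2.6% within the D53 line. In RC/- D53, 6 of 8 macrophage markers and 2 of 4 collecting duct markers were higher than in RC/+ D53, where 2.45% of all genes were called higher. All 4 skeletal muscle markers were higher as well, with a median log2 fold change of 6.24. All RC/- D53 libraries and no RC/+ D53 library belong to libraries 20 to 27, so this set and the cystic genotype cannot be told apart within the D53 line. In the D18 line 1 of 4 collecting duct markers was higher in RC/- D18 than in RC/+ D18, where 0.261% of all genes were called higher. The part of these markers in the values of the members was not tested.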

How the data were processed

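RNA-seq was done on whole kidneys of 24 mice. According to the study's methods and the labels, total RNA was extracted with a Qiagen kit, and the authors trimmed paired reads with Trim Galore 0.6.3, aligned them to GRCm38 with STAR 2.5.3a and took its gene counts on Ensembl release 94 gene models. Values in the deposited file are the authors' unnormalized counts. Which strand column was kept is not stated. All 24 columns were used, and 343 rows without a symbol stayed in the totals.

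Counts were converted to CPM with each library's total. limma-trend (limma 3.58.1, R 4.3.3) was run on log2 CPM with a prior count of 2 (edgeR 4.0.16) where the average log2 CPM over libraries was -3 or more, with a mean per group, 18 residual degrees of freedom, two-sided tests and an adjusted p threshold of 0.05 in each of 8 comparisons and 2 interaction contrasts. The fit was tested on simulated data. TMM factors, DESeq2 1.42.0 size factors, the edgeR quasi-likelihood test, DESeq2, other limits, a prior count of 0.5, fits of only the compared groups, a covariate for libraries 20 to 27 and leaving out each library were the alternatives, and fits without libraries 20 to 27 and within them were added after seeing the data. Members and gene lists were chosen with earlier results of these data known. Beyond the members, the text names from each list up to 2 genes per direction past the threshold with the largest change in RC/- against RC/+, and the 5 genes most correlated with Lrp2 and Cubn, and a few results under this rule are not reported here.

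No technical replicates are labelled, and in 39 pairs of libraries within groups chi-square per degree of freedom (genes whose counts sum to 20 or more in a pair) was 8.44 to 48.2, so none were copies. Replicate numbers are not shared between groups. P-values measure the spread between mice, and gene depth limits precision by counting error only. Exon lengths and overlaps came from GENCODE M21 on GRCm38, which holds 54409 of the identifiers, and windows before start sites from RefSeq on GRCm38.p6. Cblif and Gif of the vitamin list were not tested.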

Additional observations from a re-analysis of the deposited data

Results flagged for a closer look

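In groups of 5, a library was set apart where its gap to the nearest other exceeded Dixon's 95% critical value, which was the case for 2 of 27 sets of a member and a cystic group, and chance gives about 1 in 20. Ocrl was at 50.24 CPM in RC/- replicate 13, above 42.1 to 44.2 CPM in the other 4, and Folr1 was at 81.23 CPM in RC/- replicate 16, below 143.5 to 168 CPM in the other 4. Without RC/- replicate 13 the Ocrl log2 fold change of RC/- D53 against RC/- was -0.23 (limma-trend adjusted p = 0.061). Replicate 16 was also the lowest RC/- library for 6 other members.

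The cystic difference differed between the edited and the unedited line by the interaction contrast of limma-trend. For D18 the differences of the log2 fold changes were 1.143 for Lrp2, 0.946 for Cubn, 1.041 for Amn, 0.534 for Dab2, 0.742 for Folr1 and 1.351 for Pdzk1. For D53 they were 1.248 for Lrp2, 1.014 for Cubn, 0.894 for Amn, 0.726 for Folr1 and 1.11 for Pdzk1. Without libraries 20 to 27 only Amn and Pdzk1 passed the threshold for D18, where 9.1% of all genes did, against 17.1% with all libraries. With that set as a covariate only Amn passed for D53, where 1.79% of all genes did, against 11.3% without the covariate.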

How the results depend on the processing

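No paired analysis was run because the sample labels name no litter or other pairing between the groups. Any effect of litter was not tested. Of 1755 values of a member in a comparison under an alternative, 1646 kept their direction and side of the threshold, 43 lost a call, 17 gained one and 49 changed direction. None of the 49 was past the threshold after the change, and 1 had been a call (Ocrl in RC/- D53 against RC/- with the covariate for libraries 20 to 27). In RC/- against RC/+ the 7 calls held in all 18 alternatives. Amn and Pdzk1 kept the D18 interaction, and Amn the D53 interaction, under every alternative run. The covariate for libraries 20 to 27 gave 3 members changed in RC/- D53 against RC/-, where 7.96% of all genes were called. It gave 1 in the D53 interaction, where 1.79% of all genes were called. By its construction the edited and unedited cystic groups are then compared through RC/- D18 replicates 18 and 19. Leaving the set out gave 2 in the D18 interaction, where 9.1% of all genes were called. Fitting only the compared groups gave 1 in RC/- D53 against RC/+ D53, where 3.39% of all genes were called. Leaving out single replicates gave 0 to 1 in that comparison and 3 to 5 in the D53 interaction. The share of all genes called without a single replicate is not given. Folr1 lost the D18 interaction in 10 of 26 alternatives and the D53 interaction in 14 of 25.

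The cause of the changes of sign was not tested. With TMM factors, DESeq2 size factors, edgeR and DESeq2 in turn, the log2 fold change of Clcn5 in RC/- against RC/+ was -0.088, -0.083, -0.084 and -0.08, that of Pdzk1 in RC/+ D53 against RC/+ was -0.008, -0.0054, -0.0064 and -0.0055, and the D53 interaction of Fcgrt was 0.037, 0.021, 0.055 and 0.046. The D18 interaction of Clcn5 was 0.0061, 0.0014 and 0.00042 with the first 3. With the covariate Ocrl went from -0.27 to 0.053 in RC/- D53 against RC/- and from -0.20 to 0.126 in the D53 interaction.

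Leaving out single replicates also changed signs. In RC/+ D18 against RC/+ Dab2 ran from -0.133 to 0.021, Ocrl from -0.156 to 0.054, Fcgrt from -0.118 to 0.06, Folr1 from -0.048 to 0.178 and Pdzk1 from -0.088 to 0.154. In RC/+ D53 against RC/+ Lrp2 ran from -0.072 to 0.1, Amn from -0.044 to 0.057, Dab2 from -0.033 to 0.165 and Pdzk1 from -0.017 to 0.044. In RC/- D53 against RC/- D18 Clcn5 ran from -0.042 to 0.033, Ocrl from -0.03 to 0.099 and Folr1 from -0.116 to 0.021. In RC/- D18 against RC/+ D18 Dab2 ran from -0.083 to 0.034 and Fcgrt from -0.117 to 0.045. Clcn5 in RC/- against RC/+ ran from -0.0066 to 0.151, and the D53 interaction of Fcgrt from -0.163 to 0.028.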
